A study of Mus musculus with 3 samples.

Results

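Glucocorticoid-induced genes were followed across 3 single-cell libraries of mouse brain, together with the gene of the receptor that acts on them. The 7 members were taken by symbol: Nr3c1, Fkbp5, Tsc22d3, Sgk1, Per1, Ddit4 and Txnip. All 7 were among the 32285 genes counted. The cells came from Apoe knockout mice and had been sorted from brain as CD45int CD11b+, a gate used for microglia, the resident macrophages of the brain. At day 4, 1 group had received sham induction and PBS (the sham library), 1 had NMOSD induced and received a control peptide (the control peptide library), and 1 had NMOSD induced and received APOE130-149 (the APOE130-149 library). NMOSD commonly stands for neuromyelitis optica spectrum disorder, in which antibodies attack the optic nerve, spinal cord and brain. Every library was 1 pool of 4 mice, all 3 groups lacked Apoe, and no wild-type group was analysed here. A group was therefore 1 sample, no difference had a replicate check, and no p-value was computed.

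Glucocorticoids such as corticosterone, the main one of mice, enter cells and bind the glucocorticoid receptor, a transcription factor encoded by Nr3c1. The bound receptor leaves a chaperone complex of Hsp90 and immunophilins, moves to the nucleus and binds pairs of half-sites in DNA, from which it raises some genes, while it lowers many inflammatory genes through other factors. Among the genes it raises, Fkbp5 encodes an immunophilin that dampens the receptor, Tsc22d3 encodes GILZ, a leucine zipper protein that restrains inflammatory transcription, and Sgk1 encodes a kinase of the PI3K pathway. Per1 encodes a circadian clock repressor, Ddit4 encodes REDD1, an inhibitor of mTORC1, and Txnip encodes a thioredoxin-binding arrestin that limits glucose uptake. Most of these genes also answer to other inputs: Per1 and Sgk1 to cyclic AMP and calcium, Ddit4 to hypoxia and stress, and Txnip to glucose. The 3 comparisons asked whether these genes, and with them a response to glucocorticoid, stood at different levels in the sham, control peptide and APOE130-149 libraries.

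Start sites of the members were read for the letters of known elements, in windows of 300 bases (250 before to 50 after each RefSeq start, assembly GRCm38.p6). Of the 7 members 6 had such windows, 14 in all, and Nr3c1 had none. The sequences are shown because they hold the letters of hormone receptor, clock or cyclic AMP elements. They are printed 5′ to 3′ on the gene's strand up to the first annotated exon base, and capitals mark only the motif named for each stretch. The Sgk1 stretch lies at chr10:21993640-21993889 on the plus strand, with the full palindrome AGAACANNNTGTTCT in capitals. Near its beginning it also holds the E-box CACGTG and a further half-site TGTTCT, left in lower case.
Sgk1: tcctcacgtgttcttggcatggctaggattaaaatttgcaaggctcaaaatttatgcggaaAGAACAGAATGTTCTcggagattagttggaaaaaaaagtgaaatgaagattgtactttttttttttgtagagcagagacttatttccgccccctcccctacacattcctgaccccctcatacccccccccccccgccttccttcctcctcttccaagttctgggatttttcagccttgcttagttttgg
The Txnip stretch lies at chr3:96557707-96557956 on the plus strand, with the looser palindrome GNACANNNTGTNC in capitals.
Txnip: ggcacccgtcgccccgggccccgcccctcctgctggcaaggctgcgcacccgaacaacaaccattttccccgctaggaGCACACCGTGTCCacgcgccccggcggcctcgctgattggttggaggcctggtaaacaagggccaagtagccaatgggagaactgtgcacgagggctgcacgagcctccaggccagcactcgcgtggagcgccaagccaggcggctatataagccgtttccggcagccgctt
The Tsc22d3 stretch lies at chrX:140600663-140600772 on the minus strand, with a single half-site, TGTTCT, in capitals.
Tsc22d3: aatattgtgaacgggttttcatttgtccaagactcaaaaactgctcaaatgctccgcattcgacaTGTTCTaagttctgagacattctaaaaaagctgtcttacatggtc
The Fkbp5 stretch lies at chr17:28486150-28486399 on the minus strand, with the E-box CACGTG in capitals.
Fkbp5: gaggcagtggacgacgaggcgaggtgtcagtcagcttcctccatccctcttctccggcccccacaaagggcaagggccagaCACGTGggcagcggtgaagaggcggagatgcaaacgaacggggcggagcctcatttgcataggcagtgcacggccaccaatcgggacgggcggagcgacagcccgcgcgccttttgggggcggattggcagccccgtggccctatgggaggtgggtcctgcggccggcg
The Per1 stretch lies at chr11:69098699-69098938 on the plus strand, with the E-box and the cyclic AMP half-site TGACG in capitals.
Per1: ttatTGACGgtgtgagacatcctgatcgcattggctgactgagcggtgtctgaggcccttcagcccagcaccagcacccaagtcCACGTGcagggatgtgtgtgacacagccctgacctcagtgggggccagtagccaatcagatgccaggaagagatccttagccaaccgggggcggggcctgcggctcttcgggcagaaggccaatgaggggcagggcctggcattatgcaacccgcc
The full palindrome began 189 bases before the Sgk1 start and was in 3 of 32851 RefSeq windows (0.00913%). The looser form was in 156 windows (0.475%), among them windows of Sgk1 and Txnip. Half-sites AGAACA or TGTTCT were in 19.0% of windows, the E-box CACGTG in 7.15% and TGACG or CGTCA in 20.8%, each counted on both strands. The full palindrome also matches the looser form and both half-sites, and TGACGTCA, the full cyclic AMP element, which was in 1.79% of windows, holds both TGACG and CGTCA. No window of a member held TGACGTCA. A match describes letters only, and the receptor's best known sites at several of these genes lie in introns or further upstream.

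Library depth and purity set what could be compared. The libraries held 4674, 5306 and 2175 barcodes and 32712199, 61469677 and 32060750 unique molecular identifiers (UMIs, counts of distinct captured transcripts), in the order sham, control peptide, APOE130-149. Of 12155 barcodes 11267 passed filters on detected genes and mitochondrial UMIs, and 12 barcode sequences occurred in 2 libraries. Cells were assigned by their shares of UMIs from fixed marker lists. Microglia numbered 3655, 4309 and 1713 cells, or 86.4%, 86.0% and 84.6% of kept cells. Border-associated macrophages, the macrophages of the meninges and vessel walls, numbered 25, 19 and 24 cells, neutrophils 52, 100 and 52, and monocytes 43, 68 and 33. P2ry12, a purinergic receptor that marks microglia, was at 2668, 2463 and 2660 CPM (counts scaled to a total of 1000000) in the gated microglia and between 214 and 455 CPM in the other 3 classes. In 135, 110 and 45 cells the microglia marker share was within 10% of the 1% limit. Apoe itself was at 75.2, 101 and 117 CPM in microglia, which does not check the knockout, since a 3′ tag can come from a transcript whose deleted part lies elsewhere.

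Signs of RNA quality and of other cells moved between the microglial sums. The median microglial cell had 7456, 7796 and 9991 UMIs, the median mitochondrial share was 1.66%, 2.31% and 2.05%, and the nuclear RNA Malat1 was at 24166, 21697 and 20311 CPM. Summed neutrophil markers were at 276, 355 and 451 CPM, monocyte markers at 809, 943 and 991 CPM and border-associated macrophage markers at 284, 281 and 321 CPM. Choroid plexus markers were at 1.24, 137 and 80.4 CPM, red cell markers at 0.516, 30.3 and 25.8 CPM, and B lineage markers at 450.3, 297 and 335 CPM. Of the B lineage list, Igkc alone was at 128, 0.0998 and 2.31 CPM. Ms4a1 and Pax5, defining B cell markers, were at 0 in sham and in control peptide microglia. The part of these shifts in the results below was not tested. All levels below are CPM of summed UMIs of the gated cells, ratios are between 2 libraries, and brackets hold 95% intervals that cover counting error only. Counts are of transcript 3′ ends, so levels are compared between libraries and not between genes.

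**Figure D1:**
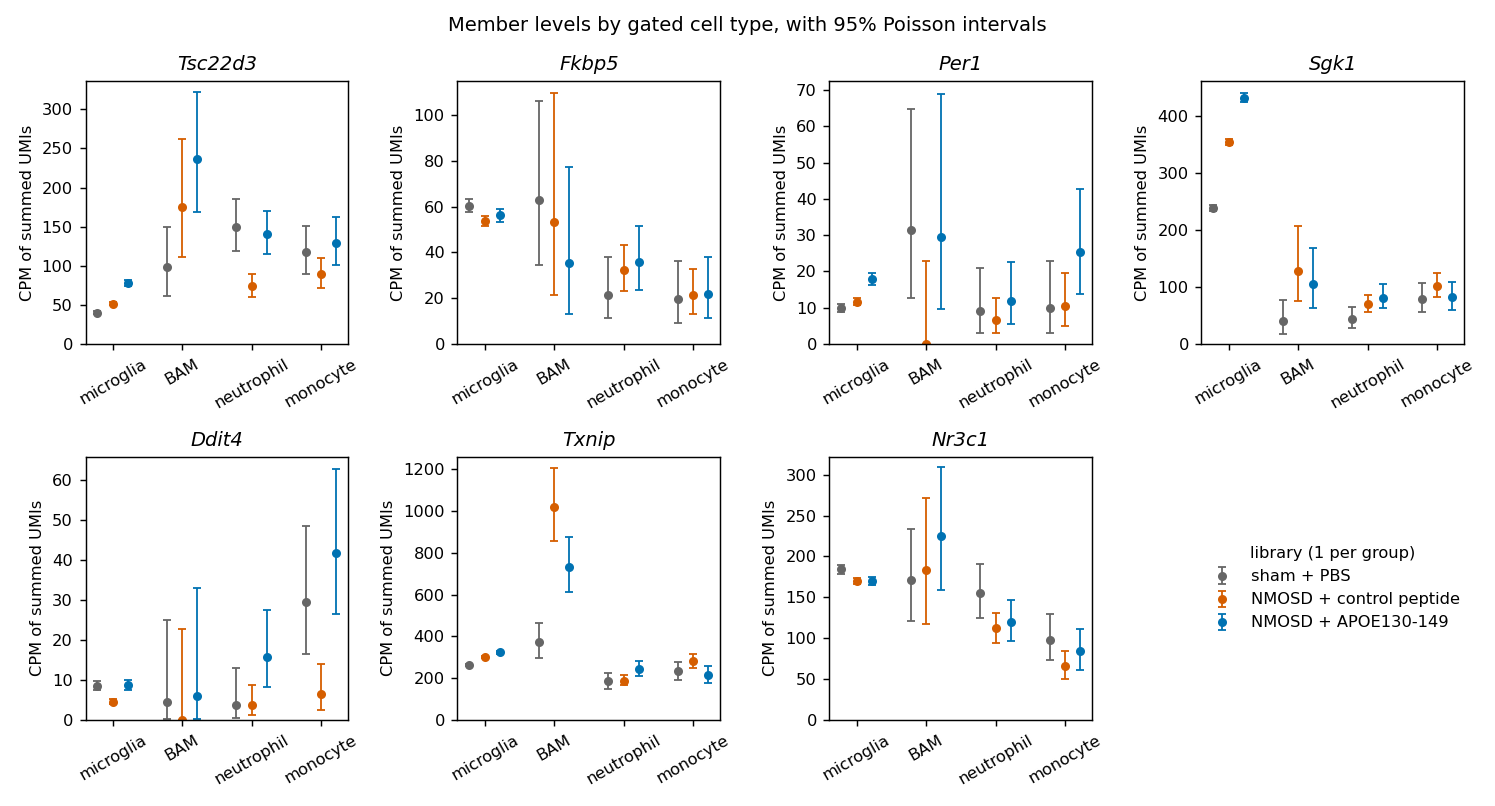
CPM of summed UMIs (linear axis from 0) for each member in 4 gated cell types, 1 point per library, with bars for 95% Poisson intervals. In microglia Tsc22d3, Per1, Sgk1 and Txnip stand in the order sham, control peptide, APOE130-149. Fkbp5 and Nr3c1 stay within 60.2 to 53.6 and 184 to 169.7 CPM. Intervals in the other 3 classes are wide because they hold 19 to 100 cells a library.

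In microglia the receptor gene and its feedback inhibitor differed little between libraries. Nr3c1 was at 184, 169.9 and 169.7 CPM in the sham, control peptide and APOE130-149 libraries. The ratio was 0.926 [0.895 to 0.958] for control peptide over sham and 0.999 [0.963 to 1.04] for APOE130-149 over control peptide. The sham library was the highest by a small margin, and both NMOSD libraries were within counting error of each other. Fkbp5, which encodes that inhibitor, was at 60.2, 53.6 and 56.1 CPM. Its ratio was 0.891 [0.839 to 0.947] for control peptide over sham, 1.05 [0.980 to 1.11] for APOE130-149 over control peptide and 0.932 for APOE130-149 over sham. Sham was the highest library for Fkbp5 too, and no pair of libraries was more than 1.5-fold apart. Nr3c1 lies at chr18:39410545-39519421 on the minus strand of GRCm38 and Fkbp5 at chr17:28399094-28517527 on the minus strand. Fkbp5 overlaps 2 other counted gene models, AC154912.5 on the same strand and AC154912.1 on the opposite one, and the counting rule for shared reads is not given in the sources used here.

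Tsc22d3 and Sgk1, the anti-inflammatory zipper protein and the kinase, were lowest in sham and highest with APOE130-149. Tsc22d3 (chrX:140539528-140600659, minus strand) was at 40.1, 51.4 and 78.1 CPM. The ratio of control peptide to sham was 1.28 [1.19 to 1.37], APOE130-149 over control peptide 1.52 [1.43 to 1.61] and APOE130-149 over sham 1.95 [1.81 to 2.09]. Thus each NMOSD library was above sham, and the step between peptides was larger than the step from sham to the control peptide. Sgk1 (chr10:21882184-21999903, plus strand) was at 238, 355 and 432 CPM. Its ratios were 1.49 [1.45 to 1.53] for control peptide over sham, 1.22 [1.19 to 1.25] for APOE130-149 over control peptide and 1.81 [1.76 to 1.87] for APOE130-149 over sham. For Sgk1 the larger step was the one from sham to the control peptide. Of their family relatives, Tsc22d2 stood in the same order at smaller size, at 81.7, 88.7 and 95.9 CPM. Tsc22d4, another member of the TSC22 family, was at 387, 293 and 341 CPM and the kinase Sgk3 at 63.1, 57.5 and 59.6 CPM, both highest in sham.

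Per1, the clock repressor, followed the same order at a low level. Per1 (chr11:69095217-69109960, plus strand) was at 9.91, 11.7 and 17.8 CPM, from 288, 588 and 461 UMIs. Its ratios were 1.18 [1.03 to 1.37], 1.51 [1.34 to 1.71] and 1.79 [1.54 to 2.08] for the same 3 comparisons. Only the APOE130-149 library stood clearly above the others, and with each cell weighted equally control peptide over sham was 0.993. Of the 2 stress and metabolic members, Txnip shared that order with smaller steps and Ddit4 did not. Ddit4 (chr10:59949669-59951834, minus strand) was at 8.57, 4.49 and 8.67 CPM, from 249, 225 and 225 UMIs, so the control peptide library was the low one and the other two were level. The ratio of control peptide to sham was 0.524 [0.435 to 0.630] and APOE130-149 over control peptide 1.93 [1.60 to 2.33], but Ddit4 stayed below 10 CPM in every library. Txnip (chr3:96557957-96561883, plus strand) was at 263, 303 and 324 CPM, with ratios of 1.15, 1.07 and 1.23 for the same 3 comparisons. Its antisense gene Gm15441 was at 0.559 to 0.620 CPM, so reads of that partner were few.

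Counted against all genes, the members that stood apart were few. A gene was taken as measured at 10 CPM or more in the higher library and as apart at 1.5-fold or more. Ddit4 was not measured, and Per1 passed only through the NMOSD libraries, which left 6 members. In control peptide over sham 0 of 6 were higher and 0 lower, where 1.59% of 8486 measured genes were higher and 0.848% lower. Sgk1 missed the limit at 1.49 and was past it under 6 other settings, among them both other scalings of the libraries. In APOE130-149 over control peptide 2 of 6 were higher, Tsc22d3 and Per1, where 0.465% of 8379 genes were higher and 0.0835% lower. Both lay just inside the limit, and with median-of-ratios or TMM scaling, which move each ratio by a few percent, 0 of 6 were. In APOE130-149 over sham Tsc22d3 and Sgk1 were higher, where 1.85% of 8521 genes were higher and 0.927% lower. Per1 (1.79), at 9.91 CPM in sham, was measured there only through the library where it was high and is not counted. The comparison of APOE130-149 with sham shares a library with each of the others, so it is not a further observation.

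The members' place among all genes is less tied to the limit. In APOE130-149 over control peptide 0.418% of measured genes had a higher ratio than Tsc22d3, 0.430% a higher one than Per1 and 3.99% a higher one than Sgk1. In control peptide over sham 1.63% of genes had a higher ratio than Sgk1 and 2.76% a higher one than Tsc22d3. Fkbp5 and Nr3c1 lay in the bulk, with 35.3% and 54.5% of genes above them between the peptides. The median log2 ratio of the 6 members was 0.22, 0.19 and 0.57 in the 3 comparisons, beside -0.07, 0.01 and -0.05 over all measured genes. These medians include Per1, which against sham was measured only through the NMOSD libraries.

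**Figure D2:**
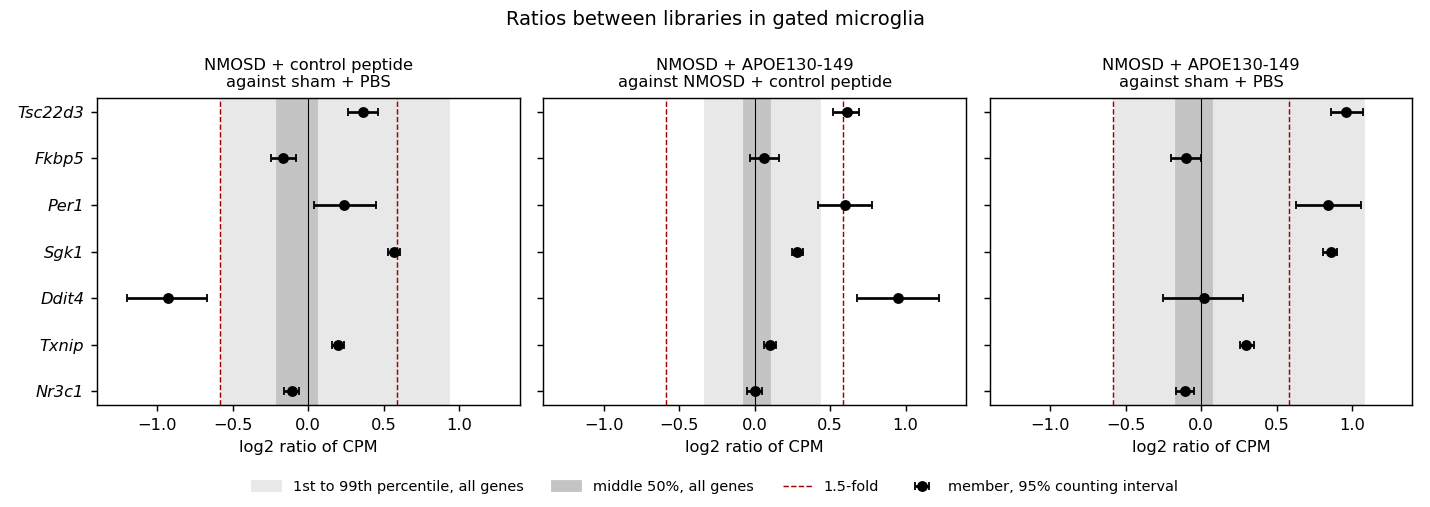
Log2 ratio of microglial CPM for each member in the 3 comparisons, with 95% counting intervals. Light grey spans the 1st to the 99th percentile of all measured genes, dark grey the middle of the distribution, and dashed lines mark 1.5-fold. Tsc22d3 and Per1 lie beyond the light band between the peptides (1.52 and 1.51), and Ddit4 is low with the control peptide (0.524) while below 10 CPM.

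The same order was seen in the share of microglia with a UMI once depth was levelled. Each cell was thinned to 3000 UMIs, which left out 817, 279 and 150 shallower cells in the same order. Tsc22d3 was then found in 10.5%, 12.7% and 17.9% of microglia (21.6%, 31.1% and 47.3% unthinned). Sgk1 was found in 45.2%, 58.9% and 66.8% (64.7%, 82.0% and 86.3% unthinned), and Per1 in 2.78%, 3.80% and 5.18%. Fkbp5 was found in 16.0%, 15.0% and 15.9% (31.5%, 38.2% and 45.3% unthinned), so the unthinned order was not seen at equal depth. Nr3c1 was found in 43.1%, 38.9% and 40.8%, Txnip in 52.4%, 56.0% and 59.0%, and Ddit4 in 2.26%, 1.44% and 2.50%. For background, P2ry12, which neutrophils lack, was found in 33.3%, 34.2% and 31.2% of thinned neutrophils, against 99.3%, 99.3% and 99.7% of microglia. A gene's own free RNA was not measured, and the rare members lie where 1 UMI per cell decides.

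Immediate early genes, which cells switch on within minutes of many stimuli, stood far apart between the libraries and moved with several members. Of 19 measured genes of that list, 18 were at least 1.5-fold higher in control peptide over sham (median log2 ratio 2.07), 7 in APOE130-149 over control peptide (0.51) and 18 in APOE130-149 over sham (2.36). Over all measured genes 1.59%, 0.465% and 1.85% were higher in these comparisons. Fos was at 83.1, 516 and 909 CPM and Klf4 at 9.78, 116 and 229 CPM. The counts over sham did not leave out genes measured only through the NMOSD libraries, such as Klf4. Microglia were therefore split into 3 ranges of equal size over the pooled cells by their share of UMIs from these genes, with limits at 0.326% and 1.10%. Of sham microglia 76.2% lay in the low, 21.7% in the middle and 2.13% in the high range. Of control peptide microglia 8.56%, 47.1% and 44.3% did so, and of APOE130-149 microglia 4.26%, 23.5% and 72.2%. The ranges are cuts of a continuous score, not cell types, and the list includes Dusp1 and Zfp36, which glucocorticoids also raise.

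Tsc22d3 and Per1 were much higher in the high than in the low range of every library, and Fkbp5 was not. In sham Tsc22d3 was at 32.9, 43.6 and 219 CPM in the low, middle and high range. With the control peptide it was at 17.3, 35.1 and 71.2 CPM, and with APOE130-149 at 21.5, 43.1 and 90.4 CPM. High over low was 6.65, 4.11 and 4.21 for Tsc22d3 and 3.85, 2.52 and 6.73 for Per1, the last from 2 UMIs in the low range. It was 1.67, 1.23 and 1.49 for Sgk1, 1.90, 2.56 and 2.28 for Txnip and 1.21, 1.37 and 1.51 for Nr3c1. For Fkbp5 it was 0.708, 0.937 and 1.25, with intervals that include 1 in both NMOSD libraries, and for Ddit4 1.60, 1.46 and 1.59, with intervals that include 1 in all 3.

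Within the ranges the order of sham and control peptide for Tsc22d3 was the opposite of that in all microglia. Control peptide over sham was 1.28 in all microglia but 0.527 [0.399 to 0.685] in the low, 0.805 [0.701 to 0.928] in the middle and 0.325 [0.278 to 0.383] in the high range. Txnip did the same, at 1.15 in all microglia and 0.575, 0.880 and 0.772 within ranges, each with an interval below 1. Per1 turned as well, from 1.18 to 0.646 [0.386 to 1.03], 0.907 [0.688 to 1.21] and 0.422 [0.283 to 0.655]. Nr3c1, below sham in all microglia too, was at 0.727, 0.860 and 0.825. Ddit4, also below sham in all microglia, was at 0.348 [0.171 to 0.637], 0.719 [0.494 to 1.06] and 0.319 [0.172 to 0.658]. Sgk1 kept its direction in the low and middle range, at 1.35 [1.27 to 1.45] and 1.26 [1.20 to 1.33], and was level in the high range at 0.991 [0.881 to 1.12]. Ranges were not fully matched: mean shares of immediate early UMIs in the low range were 0.185% in sham and 0.199% with the control peptide, but 0.457% and 0.758% in the middle and 2.64% and 1.71% in the high range, where sham had 78 cells. With 10 finer ranges, only the lowest 6 had at least 50 cells in both libraries, so the upper ones were not compared. Tsc22d3 was lower with the control peptide in 6 of 6 (0.365 to 0.784, with 4 intervals below 1). Ddit4 was lower in 6 of 6 (0.280 to 0.593, with 1 interval below 1). Txnip was lower in 6 of 6 (0.520 to 0.813), Per1 in 6 of 6 (0.534 to 0.864, with 1 interval below 1) and Sgk1 higher in 6 of 6 (1.12 to 1.51). What moves these genes with the immediate early share was not tested.

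APOE130-149 over sham turned in each range for Txnip. Tsc22d3 was level with sham in the middle range, and Per1 was above 1 there. Ranges were not fully matched for this pair either. Mean immediate early shares in sham and with APOE130-149 were 0.185% and 0.197% in the low range. They were 0.457% and 0.764% in the middle and 2.64% and 1.93% in the high range. Tsc22d3 was at 1.95 in all microglia but 0.652 [0.363 to 1.08], 0.987 [0.827 to 1.18] and 0.413 [0.352 to 0.486] in the low, middle and high range. Txnip was at 1.23 in all microglia and 0.638, 0.779 and 0.765 within ranges, each with an interval below 1. Per1 was at 0.325 [0.0391 to 1.19], from 2 UMIs with APOE130-149, then 1.32 [0.946 to 1.85] and 0.569 [0.382 to 0.882], against 1.79 in all microglia. Sgk1 stayed above sham in each range, at 1.32 [1.14 to 1.51], 1.56 [1.47 to 1.66] and 1.17 [1.04 to 1.32], against 1.81. In the 2 finer ranges with enough cells (described above) Tsc22d3 was lower than sham (0.580 and 0.785), and so was Txnip (0.652 and 0.754). Per1 was at 1.11 and 1.16, with intervals that include 1, and Sgk1 at 1.34 and 1.64.

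Between the peptides Tsc22d3 stayed above 1 in the low, middle and high range, but not in the top finer one, and Txnip did not. Mean immediate early shares with the control peptide and APOE130-149 were 0.199% and 0.197% in the low range. They were 0.758% and 0.764% in the middle and 1.71% and 1.93% in the high range, so the high range was not fully matched. APOE130-149 over control peptide for Tsc22d3 was 1.24 [0.653 to 2.20], 1.23 [1.06 to 1.42] and 1.27 [1.19 to 1.36] in the low, middle and high range, against 1.52 in all microglia. Per1 was at 0.503 [0.0570 to 2.07], from 2 UMIs with APOE130-149, then 1.46 [1.12 to 1.89] and 1.35 [1.16 to 1.56]. Sgk1 was at 0.971 [0.832 to 1.13], 1.24 [1.18 to 1.29] and 1.18 [1.15 to 1.22], so it was not above 1 in the low range. Ddit4 was at 1.83 [0.425 to 6.18], 1.64 [1.12 to 2.36] and 1.99 [1.56 to 2.54], against 1.93. Txnip, at 1.07 in all microglia, was at 1.11 [0.894 to 1.37], 0.885 [0.834 to 0.939] and 0.990 [0.959 to 1.02]. In the 6 finer ranges with enough cells, here the upper ones, Tsc22d3 ran from 1.59 [1.25 to 2.00] to 0.778 [0.700 to 0.865] in the top one. Of its intervals 3 were above 1 and 1 below. Per1 ran from 0.919 to 1.51, Sgk1 was higher with APOE130-149 in 6 of 6 (1.09 to 1.29) and Txnip lower in 6 of 6 (0.809 to 0.985). Ddit4, at few UMIs, was higher in 6 of 6 (1.21 to 2.47, with 4 intervals above 1), and Fkbp5 ran from 0.973 to 1.21.

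**Figure D3:**
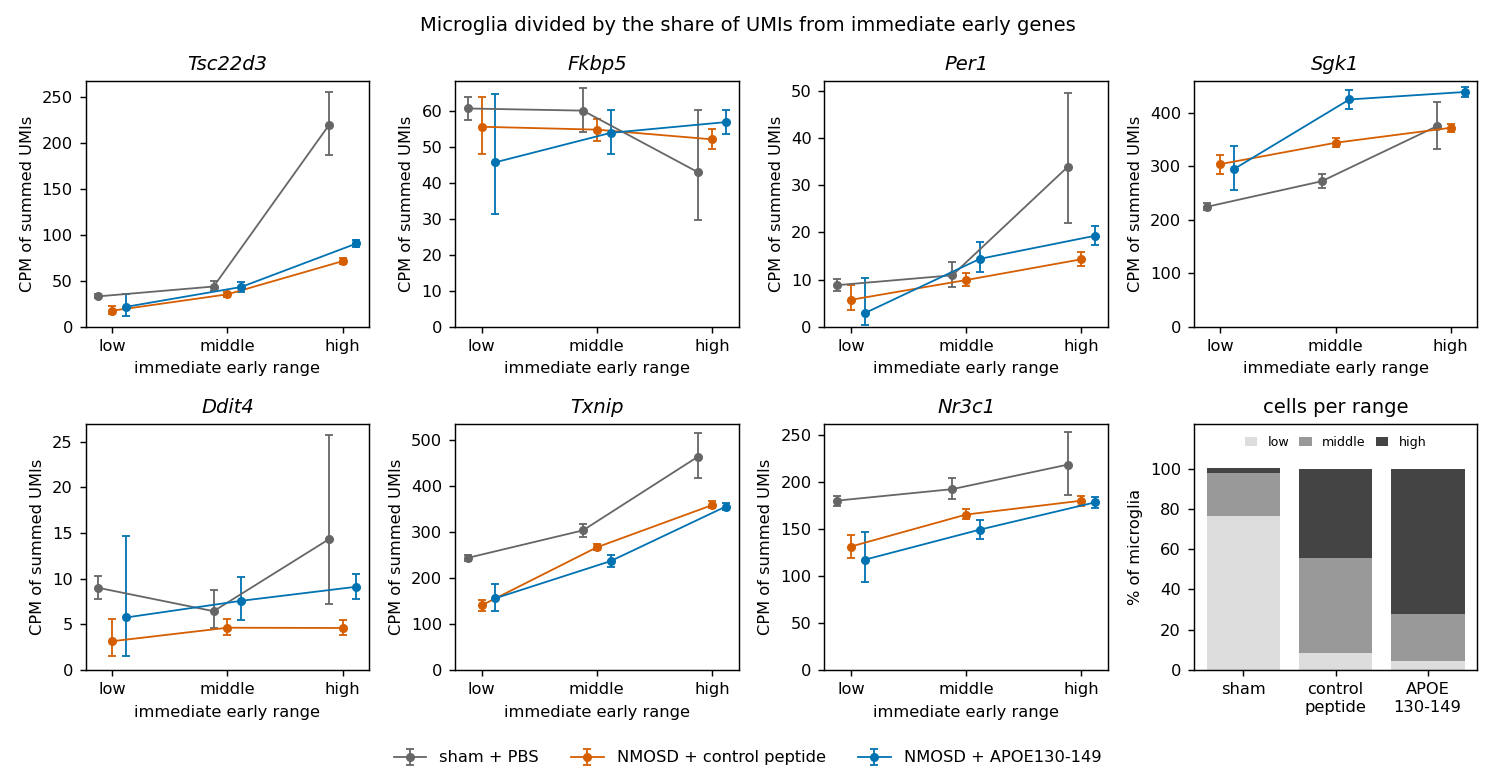
CPM of each member in microglia of the low, middle and high range of immediate early UMIs, 1 line per library with 95% Poisson intervals, and the percent of microglia in each range (last panel). Tsc22d3, Per1 and Txnip climb with the range in each library, and at a given range sham lies above the control peptide for Tsc22d3 and Txnip, while Fkbp5 is flat with the control peptide (55.7, 54.9 and 52.2 CPM).

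No gene of the wider glucocorticoid-induced list was past 1.5-fold between the peptides, where few genes of any kind were. Of 23 measured genes of that list, which leaves out the members and gate markers, 0 were 1.5-fold higher in APOE130-149 over control peptide and 0 lower, beside 0.465% and 0.0835% of all measured genes, so the count says nothing particular about the list. The closest to the limit was Zfp36, an mRNA decay factor, at 578 and 844 CPM (1.46 [1.43 to 1.48]), followed by Rhob at 1.34 and the MAP kinase phosphatase Dusp1 at 1.31. The list median was 0.17, beside 0.01 over all genes. In control peptide over sham, where 1.59% of all genes were higher, 5 of 23 were: Dusp1 (5.25), Zfp36 (3.50), Errfi1 (1.98), Rhob (1.97) and Nfkbia (1.51), the NF-kB inhibitor, whose ratio was between 1.43 and 1.59 over 11 alternatives and past the limit in 6. Of these 5, Dusp1, Zfp36 and Rhob are also on the immediate early list. The lowest were Mertk, Bcl6 and Irs2, with Bcl6, a transcriptional repressor, at 21.2 and 17.9 CPM (0.845). The same 5 were higher in APOE130-149 over sham, and the list median there was 0.28.

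Genes of the receptor's own machinery moved by less than 1.5-fold. The count was 0 of 15 measured chaperones and coregulators in each comparison, near the share of all genes (1.85% or less in either direction), with list medians of -0.04, -0.03 and 0.09. Hsp90aa1, a chaperone that holds the unbound receptor, was at 183, 239.7 and 231 CPM, its partner Hsp90ab1 at 589.6, 731 and 672 CPM, and the immunophilin Fkbp4 at 42.9, 49.1 and 50.4 CPM. In control peptide over sham Hsp90aa1 was at 1.31 [1.27 to 1.35] and Hsp90ab1 at 1.24 [1.22 to 1.26], beside 1.28 for Tsc22d3. The coactivators Ncoa1 and Ncoa2 were highest in sham, at 31.5, 26.6 and 24.7 CPM and 60.1, 51.1 and 51.4 CPM, with Ncoa1 at 0.783 [0.707 to 0.868] for APOE130-149 over sham.

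Of the inflammatory genes that glucocorticoids are known to lower, the chemokines Ccl3 and Ccl4 were higher in both NMOSD libraries than in sham. Of 11 measured genes Ccl4 (2.21) and Ccl3 (1.91) were higher in control peptide over sham and 0 lower. Over all measured genes 1.59% were higher and 0.848% lower. Tnf (3.15), at 3.41 and 10.7 CPM, was measured only through the library where it was high and is not counted. Ccl3 was at 90.2, 173 and 304 CPM and was the 1 gene of the list past 1.5-fold between the peptides, where 0.465% of all measured genes were higher. Its ratio there was 1.76 [1.71 to 1.82], and 1.49 in cells of 5000 to 20000 UMIs. In APOE130-149 over sham Ccl3 (3.37), Ccl4 (83.8 and 251 CPM) and Ccl2 (1.82) were higher, where 1.85% of all measured genes were. Tnf (4.34) was again measured only through the library where it was high and is not counted. Cxcl10, an interferon-induced chemokine, was at 53.2, 57.6 and 39.8 CPM, with the lowest ratio of the list between the peptides at 0.691 [0.643 to 0.743]. Icam1 and Cd83 came next. Cells chosen in other ways put some of these genes past the limit downwards: Cxcl10 was at 0.522 between the peptides in cells of 5000 to 20000 UMIs and at 0.659 with clusters, where APOE130-149 over sham was 0.519. The stricter gate, by contrast, put Cxcl10 in APOE130-149 over sham at 1.64. The interleukin gene Il1b was at 13.5, 15.2 and 16.5 CPM, and its control peptide over sham ratio of 1.13 became 0.588 without cells above 2 times the median UMIs and 0.614 with each cell weighted equally, so neither gene has a direction that holds over these choices.

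Lists for the members' other inputs held few genes apart, as did all measured genes (1.85% or less in either direction). Of 11 measured clock genes Dbp, an output activator, was higher in control peptide over sham (13.8 and 20.8 CPM, 1.51) and Arntl, which encodes BMAL1, was lower (10.8 and 6.35 CPM, 0.589 [0.502 to 0.691]), measured only through sham. Over 11 alternatives the Dbp ratio was between 1.39 and 1.59 and missed the limit in 3, those without the largest cells, with equal weight per cell and with cells of 5000 to 20000 UMIs. Between the peptides 0 of 10 were apart, while Per1 was at 1.51. Of the targets of FoxO factors and the integrated stress response, Klf2 alone was apart, at 51.1, 435 and 732 CPM, and it is also on the immediate early list. Of 13 arrestin and glucose-responsive genes none was apart in any comparison. Arrdc3, a relative of Txnip, was at 16.0, 18.4 and 23.2 CPM and the glucose transporter Slc2a1 at 36.2, 27.6 and 29.3 CPM. None of the 4 or 5 measured genes of the TSC22 and SGK families was apart.

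**Figure D4:**
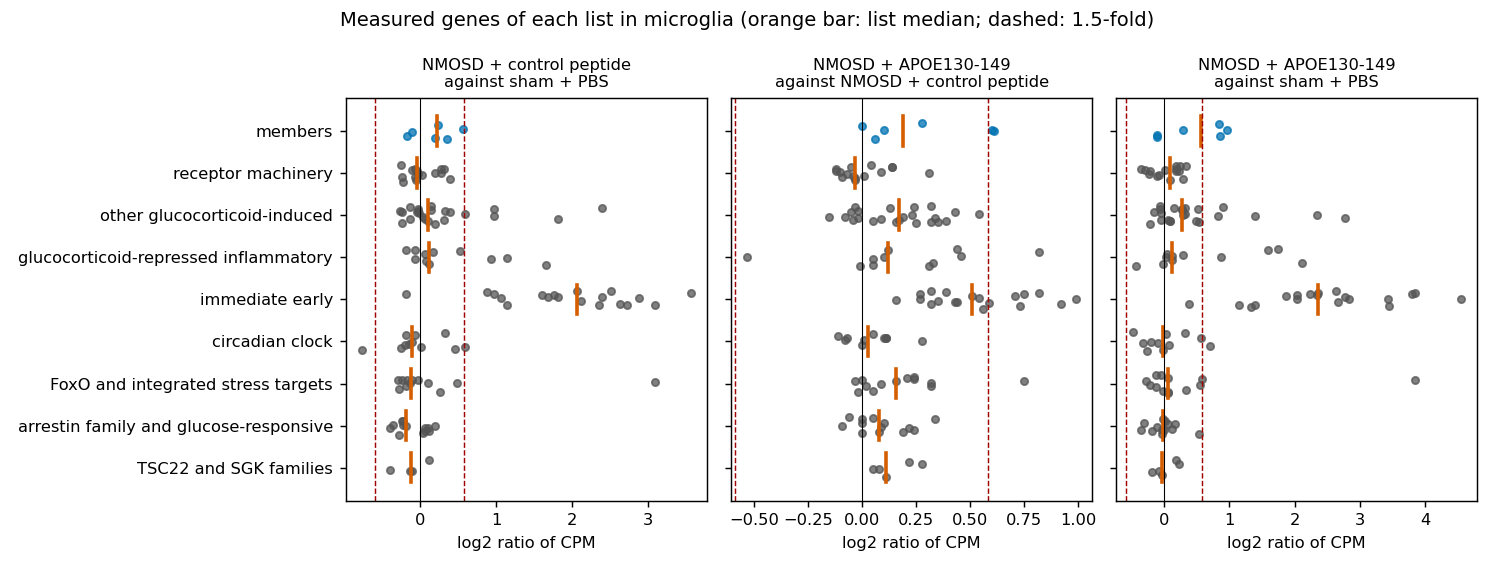
Log2 ratios of microglial CPM for the measured genes of each list (1 point per gene, jittered vertically) in the 3 comparisons, with the list median as an orange bar and 1.5-fold as dashed lines; the horizontal scales differ between panels. The immediate early list is displaced in all panels (medians of 2.07, 0.51 and 2.36), while the receptor machinery list stays near 0 (-0.04, -0.03 and 0.09).

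In neutrophils, Tsc22d3 was lowest with the control peptide. Its level was 149.6, 74.1 and 141 CPM, from 83, 99 and 107 UMIs. Control peptide over sham was 0.495 [0.366 to 0.671], the opposite direction to microglia, and APOE130-149 over control peptide was 1.90 [1.43 to 2.53]. Under the other gates, clusters and scaling, control peptide over sham stayed between 0.449 and 0.466, while APOE130-149 over control peptide ran from 1.38 with clusters, below the limit, to 2.00. APOE130-149 over sham was 0.942 [0.700 to 1.27], but 0.729 [0.566 to 0.944] without a limit on microglia markers and 0.618 [0.484 to 0.796] with clusters. In these small classes a gene counts as apart only if its counting interval also excludes 1. By that rule Tsc22d3 was the 1 member lower in control peptide over sham, where 5.002% of 7417 genes were lower, and Sgk1 (43.3 and 70.3 CPM, 1.63) the 1 member higher, where 13.8% were. Tsc22d3 was higher in APOE130-149 over control peptide, where 5.85% of genes were higher and 9.01% lower. Ddit4, at 3.74 and 15.8 CPM from 5 and 12 UMIs (4.22 [1.38 to 15.3]), passed 10 CPM only through the library where it was high and is not counted, and a stricter gate left 3 and 3 UMIs. Sgk1 was higher in APOE130-149 over sham at 1.89, where 7.26% of genes were higher and 2.53% lower. The stricter gate, with less microglial RNA, put Sgk1 at 0.610 and 0.912 in these comparisons, so its direction rests on the gate. Nr3c1 was at 155, 112 and 119.8 CPM in neutrophils.

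In monocytes Ddit4 was lowest with the control peptide. Its level was 29.4, 6.36 and 41.8 CPM, from 15, 6 and 23 UMIs, and the cell richest in it held 60.0% of its sham UMIs. The ratio to sham with the control peptide was 0.216 [0.0688 to 0.590], where 5.03% of 8150 genes were lower and 4.32% higher. APOE130-149 over control peptide was 6.57 [2.60 to 19.7], where 4.17% of genes were higher and 3.21% lower. Since Ddit4 reached 10 CPM only in the libraries where it was high, these ratios are a description and no count is read from them. The control peptide library was the low one in microglia too, and no other member was apart in either comparison. Tsc22d3 was at 118, 89.1 and 129 CPM, and APOE130-149 over control peptide was 1.45 [1.04 to 2.01]. Sgk1 was at 78.4, 102 and 81.8 CPM, Txnip at 233, 281 and 214 CPM and Nr3c1 at 98.1, 65.8 and 83.6 CPM. No member was apart in APOE130-149 over sham, where 5.20% of genes were higher and 5.002% lower.

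In border-associated macrophages Txnip was highest with the control peptide. Its level was 373, 1019 and 733 CPM, from 83, 134 and 124 UMIs. Its ratio of control peptide to sham was 2.73 [2.06 to 3.64] and APOE130-149 over control peptide 0.720 [0.559 to 0.926]. Without a limit on microglia markers, which lets more cells with microglial RNA into the class, these were 1.32 and 1.17. Sgk1 (40.4, 129 and 106 CPM, from 9, 17 and 18 UMIs) and Txnip were the 2 members higher in control peptide over sham, where 3.91% of genes were higher and 1.55% lower. The cell richest in Sgk1 held 44.4%, 64.7% and 27.8% of its UMIs in the 3 libraries, a spread that counting intervals do not cover. Under the stricter gate Sgk1 had 2 and 4 UMIs in sham and control peptide, with a ratio interval of 0.630 to 48.6. In APOE130-149 over sham Tsc22d3, Sgk1 and Txnip were higher, where 3.83% of genes were higher and 2.20% lower, and none was apart between the peptides, where 2.03% were higher and 2.51% lower. Tsc22d3 was at 98.8, 175 and 237 CPM, from 22, 23 and 40 UMIs, and under the stricter gate, with 11, 3 and 7 UMIs, APOE130-149 over sham went from 2.39 to 1.22. Per1 was at 0 UMIs with the control peptide, which allows up to 22.8 CPM, and at 7 and 5 UMIs in sham and APOE130-149.

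Set side by side, APOE130-149 over control peptide for Tsc22d3 was above 1 in microglia (1.52), neutrophils (1.90), monocytes (1.45) and border-associated macrophages (1.35 [0.791 to 2.37]). The 4 values come from the same 2 libraries and are not replicates of each other. For Fkbp5 the same ratios were 1.05, 1.10, 1.03 and 0.667, each with an interval that includes 1. Free RNA is shared by all cells of a library, and its part in these values was not tested.

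Patterns across all 12 sums of library and cell type were compared among 3127 genes with at least 50 CPM on average, by Pearson correlation of log2 levels, as a description in which the points share libraries and differ mostly by cell type. Sgk1 was most like Tsc22d2 (0.97), Smad7 and Rgs2 (0.96 each). Nr3c1 was most like Kif1b (0.95), Fkbp5 most like Nktr (0.95) and Txnip most like Hist1h2bc (0.92). Tsc22d3 had no gene closer than Pla2g7 (0.85), followed by Gabarap and Neat1 (0.84 each).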

How the data were processed

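Sorted brain cells were profiled by 10x 3′ single-cell RNA sequencing, 1 library per group. The deposited matrices give raw UMI counts, per the file headers and the values. The submitters' processing notes name Cell Ranger 5.0.1, Seurat 4.3.0 and mm10, whereas the headers name cellranger 7.0.1. Whether introns or strand were used in counting was not stated there, so intronic or antisense reads may add to long or overlapping genes.

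Kept cells had 500 or more detected genes and no more than 10% mitochondrial UMIs, which removed 9.48%, 5.56% and 6.90% of barcodes. Lists of 12 markers per type set the gates. Microglia had at least 1% of UMIs from microglia markers, at least 5 of them detected, and under 0.2%, 1% and 0.5% from border-associated macrophage, neutrophil and monocyte markers. The other classes had under 1% from microglia markers, at least 4 of their own detected, and at least 0.2%, 2% and 0.5% of UMIs from them. Of kept cells 10.8%, 10.3% and 10.0% fell in no gate. These limits were chosen once the data had been looked at. Doublets were not removed, but leaving out cells past 2 times the library's median UMIs was an alternative.

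UMIs were summed per library and class and scaled to CPM. Poisson intervals, conditional Clopper-Pearson intervals for ratios and binomial intervals for shares were exact, at 95%, and cover counting error only. Where no UMI was found the upper limit was 3 counts. Microglial sums were 29052364, 50113711 and 25952006 UMIs. All members were named, and from each list the 3 highest and 3 lowest ratios and all genes 1.5-fold apart. Examples beyond these, such as Fkbp4, Tsc22d4, Sgk3, Il1b and Fos, were chosen after their values were seen. The members and lists were chosen with earlier results of these data known. Alternatives were median-of-ratios and TMM scaling (edgeR 4.0.16, R 4.3.3), stricter cell filters and gates, Leiden clusters (2000 variable genes, 30 components, 15 neighbours, resolution 1), equal weight per cell, other totals and other minimum levels. Software was Python 3.11.15 with numpy 2.4.6, scipy 1.17.1, pandas 2.3.3, scanpy 1.11.5, igraph 0.11.9, leidenalg 0.10.2, scikit-learn 1.9.0 and matplotlib 3.10.9. Gene positions are from a GRCm38 annotation (mm10 is that assembly) and promoter sequences from RefSeq windows on GRCm38.p6.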

Additional observations from a re-analysis of the deposited data

Results flagged for a closer look

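Control peptide over sham for Tsc22d3 was 1.28 in microglia and 0.495 in neutrophils, opposite directions with both counting intervals away from 1. The difference between the cell types was not tested, since each rests on the same 2 libraries. APOE130-149 over control peptide for Txnip was above 1 in microglia (1.07) and neutrophils (1.30) and below 1 in border-associated macrophages (0.720) and monocytes (0.763). That difference was not tested either, and the border-associated macrophage value was 1.17 without a limit on microglia markers and the monocyte value 1.06 with clusters.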

How the results depend on the processing

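No paired analysis was possible because each group is 1 library. In control peptide over sham the count of members higher in microglia went from 0 to 1, in each case Sgk1, with median-of-ratios scaling, TMM scaling, Leiden clusters, removal of cells above 2 times the median, removal of the 0.25% of cells richest in the gene, and, chosen after seeing the data, cells of 5000 to 20000 UMIs. With no minimum level the count lower went from 0 to 1 (Ddit4). In APOE130-149 over control peptide the count higher went from 2 to 0 with both other scalings, and to 1 (Tsc22d3) with each cell weighted equally or at least 50 CPM required. With no minimum level the other glucocorticoid-induced list had 13, 4 and 13 genes higher in the 3 comparisons in place of 5, 0 and 5.

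Over 11 alternatives the Tsc22d3 ratio stayed within 1.17 to 1.35 for control peptide over sham, 1.48 to 1.57 between the peptides and 1.78 to 2.03 for APOE130-149 over sham. Sgk1 stayed within 1.45 to 1.57, 1.16 to 1.22 and 1.69 to 1.88, and Ddit4 within 0.521 to 0.586, 1.78 to 2.16 and 0.986 to 1.13. Per1 ranged from 0.993 to 1.25 and Nr3c1 from 0.895 to 1.04 for control peptide over sham, so their direction there depends on the weight of cells. In the small classes the stricter gate reversed Sgk1, to 0.961 in border-associated macrophages (APOE130-149 over sham, 1 and 2 UMIs) and to 0.610 and 0.912 in neutrophils over sham. The cause was not tested. The gate and scaling alternatives in the small classes and the finer ranges were chosen after seeing the data. Depth limits Per1 and Ddit4 in every class and all members outside microglia.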
